A study of Mus musculus with 25 samples.

Results

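Trimethylation of lysine 27 on histone H3 (H3K27me3) was compared between vhl-/- and wild-type regenerating mouse myofibers on the autosomes. The comparison covered the 6 deposited H3K27me3 peak lists of these genotypes, chosen by genotype and antibody in the labels and restricted to chromosomes 1 to 19. These lists hold 22145 peaks, 10623 in wild-type and 11522 in vhl-/- lists, of 55242 peaks in 24 lists in the whole series. All mice, controls included, carried mito-Dendra2, a fluorescent mitochondrial reporter, and Pax7-Cre(ERT2), a tamoxifen-dependent recombinase active in muscle stem cells and thus in the fibers they form. In the vhl-/- group the floxed Vhl gene was removed by the same driver. Every animal received tamoxifen (75 mg/kg on 5 days) and a BaCl2 injury of the tibialis anterior muscle (50 µL of a 1.2% solution), and the fibers that carried Dendra2 were collected at 14 dpi (days post injury). Each genotype had 3 libraries. The paper's figure legends call the libraries of a ChIP-seq data set biological replicates. For the wild-type libraries they give a count of mice, and for the vhl-/- libraries they give none. The tests below measure the spread between these libraries.

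H3K27me3 is deposited by Polycomb repressive complex 2 and marks silenced genes, above all developmental regulators with CpG-rich promoters that are off in a given lineage. In mature muscle it covers homeobox, T-box and neural transcription factor genes, while most genes of the contractile apparatus are expected to lack it. VHL is the substrate-binding subunit of a ubiquitin ligase that marks HIF1α for degradation when oxygen is present, so that loss of VHL stabilizes HIF1α. The enzymes that remove methyl groups from H3K27 need oxygen for their reaction. A peak list from dissected tissue cannot tell a lower mark in every nucleus from fewer nuclei that carry it.

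Whether loss of VHL shifts this mark at particular genes was addressed first at Myh8, the perinatal myosin heavy chain of developing and regenerating fibers (ENSMUSG00000055775). The score of a peak is 10 times the negative log10 of its p-value, and it runs from 50 to 3100 in these lists. In all 3 wild-type lists the Myh8 peak scored 3100 and was the strongest peak of its list. In the vhl-/- lists it scored 250.83, 155.22 and 137.95 and ranked 94, 343 and 333. The groups did not overlap. Relative to the median of the 427 regions with a peak in all 6 lists, the log2 score at Myh8 fell in vhl-/- (log2 difference -4.44, SE 0.471, 95% confidence interval -5.36 to -3.51; limma with Benjamini-Hochberg adjustment, adjusted p = 6.23e-18). This SE equals the median SE over the 427 regions, so the p-value rests on a spread pooled over regions. It does not measure the spread at Myh8 alone, where the 3 wild-type values are identical. The identical value in the 3 wild-type lists may be a ceiling of the deposited score. The difference also depends on the scaling, at -3.39 with quantile normalization and -4.15 without centering. A score grows with sequencing depth, which is unknown here, and a difference in score is not a fold change in the mark.

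The merged Myh8 region is chr11:67281518-67284995 (mm10). The authors placed the wild-type peak 1–2 kb from a start site of the gene and the vhl-/- peaks 2–3 kb from one. By the RefSeq annotation Myh8 is transcribed from the forward strand over chr11:67277124-67308634, so that the wild-type peaks lay 4.39 to 7.87 kb inside the gene. They were 3476, 3354 and 3309 bp wide. The vhl-/- peaks lay within the same stretch and were 1839, 1534 and 1527 bp wide. The width difference at this region was -1.26 on the log2 scale (limma, adjusted p = 0.460), which did not pass. Wild-type replicates 1 and 3 also had weaker peaks closer to the start, with scores of 57.54 and 71.35 in replicate 1 and 130.01 in replicate 3, and wild-type replicate 2 and the vhl-/- lists had none there. No H3K9me3 peak of either genotype fell in the Myh8 region. In the other mutant genotypes of the series, which share the wild-type lists as controls, the highest Myh8 peak scored 401.68, 511.25 and 413.64 with Mfn2 deleted (mfn2-/-) and 1442.38, 1453.44 and 1467.77 with the HIF1dPA allele expressed. It ranked 9, 5 and 11 in the mfn2-/- lists and 1 in each HIF1dPA list, where it was 3211, 3068 and 3263 bp wide. These lists are shorter, with 2455, 2342 and 2574 autosomal peaks in mfn2-/- and 474, 493 and 496 in HIF1dPA.

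**Figure D1:**
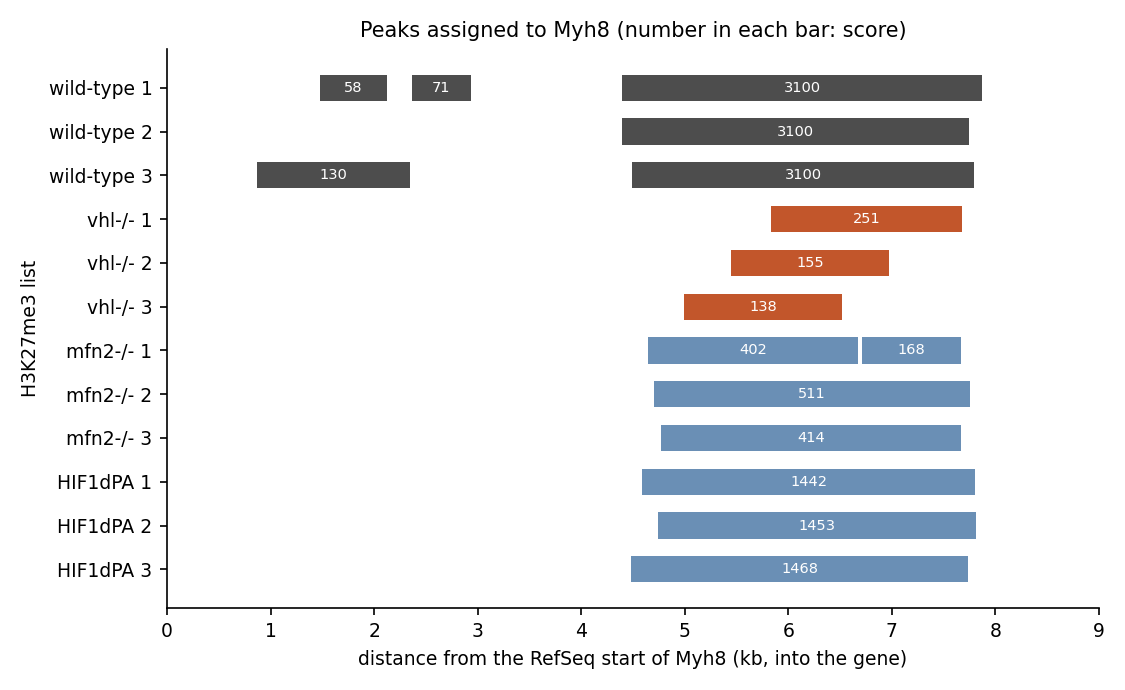
Peaks assigned to Myh8 in the 12 H3K27me3 lists, drawn by distance from the RefSeq start of the gene in kb (horizontal axis), with the score of each peak in its bar, grey for wild-type, orange for vhl-/- and blue for mfn2-/- and HIF1dPA. The 3 wild-type peaks at 3100 span 4.39 to 7.87 kb, and the 3 vhl-/- peaks are narrower and score from 138 to 251.

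Of the other genes that the study asks about, the adult and embryonic myosin heavy chains Myh1, Myh2, Myh3, Myh4, Myh7 and Myh13 had no peak in any of the 6 lists. The myogenic regulators Myod1 and Myog had none either, nor had Hif1a and Vhl, so the lists hold no check of the Vhl deletion itself. Nfatc2, a calcium-regulated transcription factor, had a peak only in wild-type replicate 1, with a score of 51.29 just above the lowest listed value. Pax7, the defining transcription factor of muscle stem cells, had a peak in 2 lists of each genotype. Its scores were 105.11 and 67.94 in wild-type replicates 1 and 2 and 74.08 and 71.6 in vhl-/- replicates 2 and 3, and these values overlap. None of 11 myofiber marker genes, such as Acta1, Ckm and Ttn, had a peak in any list.

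Scores were then compared over all 427 regions with a peak in each list. Apart from Myh8, which was 1 of 427 regions called lower (0.234%), no region passed in the lower direction, and 0 regions (0.0%) passed in the higher direction. At an unadjusted p under 0.05 the limma fit gave 13 regions lower and 13 higher. The other regions differed by -1.37 to 1.42 on the log2 scale, with a standard error of 0.471 and a smallest adjusted p of 0.389. Before centering, the median score over these regions was 119.16, 111.37 and 108.87 in the wild-type lists and 141.99, 146.56 and 127.27 in the vhl-/- lists, so every vhl-/- list was above every wild-type list. The median region was therefore stronger in the vhl-/- lists, and the tested differences are relative to it. Depth could not be read from the lists, and its part in this shift was not tested.

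Among regions with higher scores in vhl-/-, none passed, and 4 of the 5 with the smallest p-values are described here. At Dlx3, a homeobox gene of skin and placenta, scores were 50.49, 103.08 and 61.14 in wild-type and 231.57, 248.71 and 194.86 in vhl-/- (log2 difference 1.42, limma adjusted p = 0.389). At Tbx18, a T-box gene of the embryonic heart and somites, they were 83.84, 69.39 and 77.19 against 259.0, 211.55 and 259.57 (1.37, limma adjusted p = 0.389). At the region shared by the limb-patterning genes Hoxd10 and Hoxd11 they were 76.49, 88.58 and 115.73 against 229.45, 292.5 and 282.76 (1.24, limma adjusted p = 0.577). In each of these 3 regions the vhl-/- lists lay above the wild-type lists with no overlap, but the regions were picked by p-value in this direction. That separation is therefore no further support. The printed scores are not centered, and the median region was also higher in every vhl-/- list. A region at Gata4, a regulator of heart development, had scores of 106.24, 130.88 and 59.7 against 234.69, 252.24 and 272.06 (limma adjusted p = 0.690). The highest Gata4 peak of each list, at any of its regions, scored 307.67, 433.13 and 138.63 in wild-type and 234.69, 295.95 and 272.06 in vhl-/-, which overlap.

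**Figure D2:**
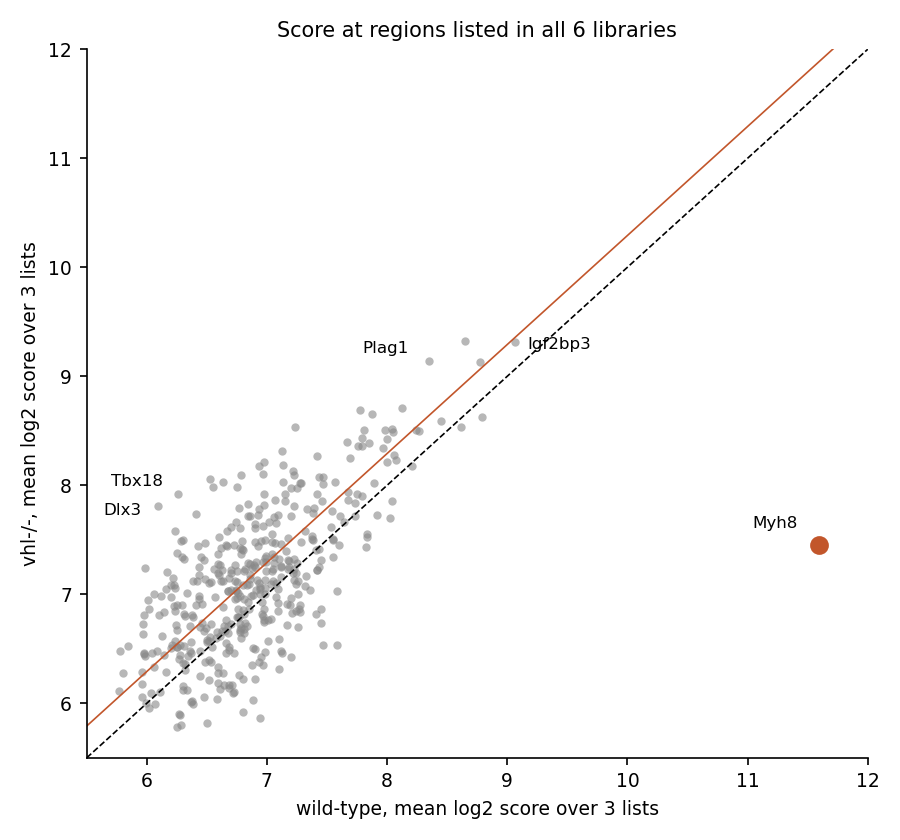
Mean log2 score over the 3 wild-type lists (horizontal axis) against that over the 3 vhl-/- lists (vertical axis) for the 427 regions with a peak in all 6 lists, with equality as a dashed line and the shift between the medians of the genotypes as an orange line. Myh8, the large orange point, lies far to the right of both lines, and Dlx3 and Tbx18 lie above them, near the upper edge of the other regions.

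Widths at the same regions gave 0 calls lower (0.0%) and 0 higher (0.0%) by limma, with 16 lower and 15 higher at an unadjusted p under 0.05. The differences ran from -1.30 to 1.60 on the log2 scale with a median standard error of 0.414. The 5 with the smallest p-values toward wider peaks in vhl-/- were at Tmeff2, a transmembrane protein gene, and at the transcription factor genes Sox14, Tbx18, Ascl4 and Tbr1. The 5 toward narrower peaks were at Myh8, at Sox17, a regulator of endoderm and endothelium, at the noncoding genes B230323A14Rik and A830082K12Rik, and at a region shared by Gm17200 and Slc6a20a.

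The regions that were strongest over all 6 lists were named whatever their difference. Ranked by mean percentile of the score within a list, the first was Igf2bp3, a fetal RNA-binding protein gene, with scores of 546.5, 630.23 and 442.45 in wild-type and 740.51, 555.94 and 623.01 in vhl-/-. The homeobox gene Nkx2-4 held the second and the fifth place with separate regions, Gm26553 the third, and Plag1, a zinc finger gene of fetal growth, the fourth. Scores at Plag1, which are not centered, were 249.19, 319.65 and 431.73 against 468.89, 555.51 and 683.69. They were higher in every vhl-/- list, as was the median over the 427 regions, and Plag1 did not pass limma. Those of Igf2bp3 overlapped. The regions of all 6 lists, each merged over the lists, spanned a median of 4307 bp. The peaks of a single list covered a median of 1890 to 2434 bp of them. The authors classed 67.2% of these regions as promoters, and 293 of the 427 also had a peak in each of the 3 mfn2-/- lists. Of the 11050 regions with a peak in any of the 6 lists, 41.7% were classed as promoters and 509 had a peak in each mfn2-/- list.

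Most listed regions were not shared. Peaks that overlapped by at least 1 bp were merged into 11050 regions, of which 7648 (69.2%) had a peak in 1 library and 427 (3.86%) in all 6. A region was taken to separate the genotypes when all 3 lists of a genotype and no list of the other had a peak there. In this sense 33 regions were listed in wild-type only (0.299% of all regions) and 66 in vhl-/- only (0.597%). With the 3427 strongest peaks of each list, the length of the shortest list, 33 (0.326%) and 49 (0.484%) of 10128 regions were listed in wild-type only and in vhl-/- only. With 3 lists a genotype, listing alone cannot pass a test at 0.05, and these counts carry none.

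The wild-type only region with the highest percentile was at Gusb, which encodes the lysosomal enzyme β-glucuronidase. Its peak covers chr5:129994083-129996789 (mm10), inside the gene and centered by the authors on exon 9 of 12. It scored 993.81, 847.65 and 853.32 and was the second strongest peak in each wild-type list, behind Myh8. No vhl-/- list had a peak there or within 5 kb, and no mfn2-/- or HIF1dPA list had one that overlapped it. No H3K9me3 peak of wild-type or vhl-/- overlapped it. With no listed vhl-/- score, the difference at Gusb was not tested.

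Ryr3, a ryanodine receptor that releases calcium from intracellular stores, followed with a peak in intron 1 of 102 at chr2:113174246-113176706. Its scores of 221.39, 405.14 and 130.55 gave it ranks of 76, 9 and 275, and no peak lay there in any vhl-/-, mfn2-/- or HIF1dPA list. Gusb and Ryr3 stood apart from the rest by score. The others of the 10 highest had mean percentiles of 81.2 and below, and were assigned to the hemidesmosome integrin Itgb4, to Skap2, an adaptor gene beside the Hoxa cluster, to the solute carrier gene Slc10a4, to Mir670hg, to the homeobox genes En2 and Alx4, to the ring finger gene Znrf4 and to Galnt2l. Itgb4 scored 181.42, 77.3 and 89.76, and Slc10a4 scored 65.84, 89.62 and 87.64. With an equal number of top peaks, C430014B12Rik and H2-Q6 joined them. H2-Q6 is a histocompatibility gene with near-identical copies, so reads there are hard to place and the region is uncertain.

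In the other direction BC107364, a predicted gene, came first. Its region at chr3:96451820-96454034 scored 149.99, 124.87 and 150.23 in vhl-/-, with ranks of 363, 551 and 256, and had a peak in all 3 mfn2-/- lists as well. The next were AA387200, with scores of 126.8, 182.83 and 86.61, the epidermal barrier gene Lor, with 97.81, 142.8 and 84.36, and the homeobox gene Nkx2-3, with 77.41, 253.12 and 91.72. Hand1, a regulator of heart and placenta, scored 70.68, 91.39 and 160.15, and the secreted signal Wnt3a scored 94.0, 67.57 and 118.61. Platr30, Rpl31-ps16, Onecut2 and Npas1 completed the 10, and Twist1, a mesenchymal regulator, joined them with an equal number of top peaks. None of the 66 regions reached the scores of Gusb. The mean score over the 3 lists ran from 52.8 to 142, with a median of 76.3, against 54.3 to 898 and a median of 74.2 for the 33 wild-type only regions.

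**Figure D3:**
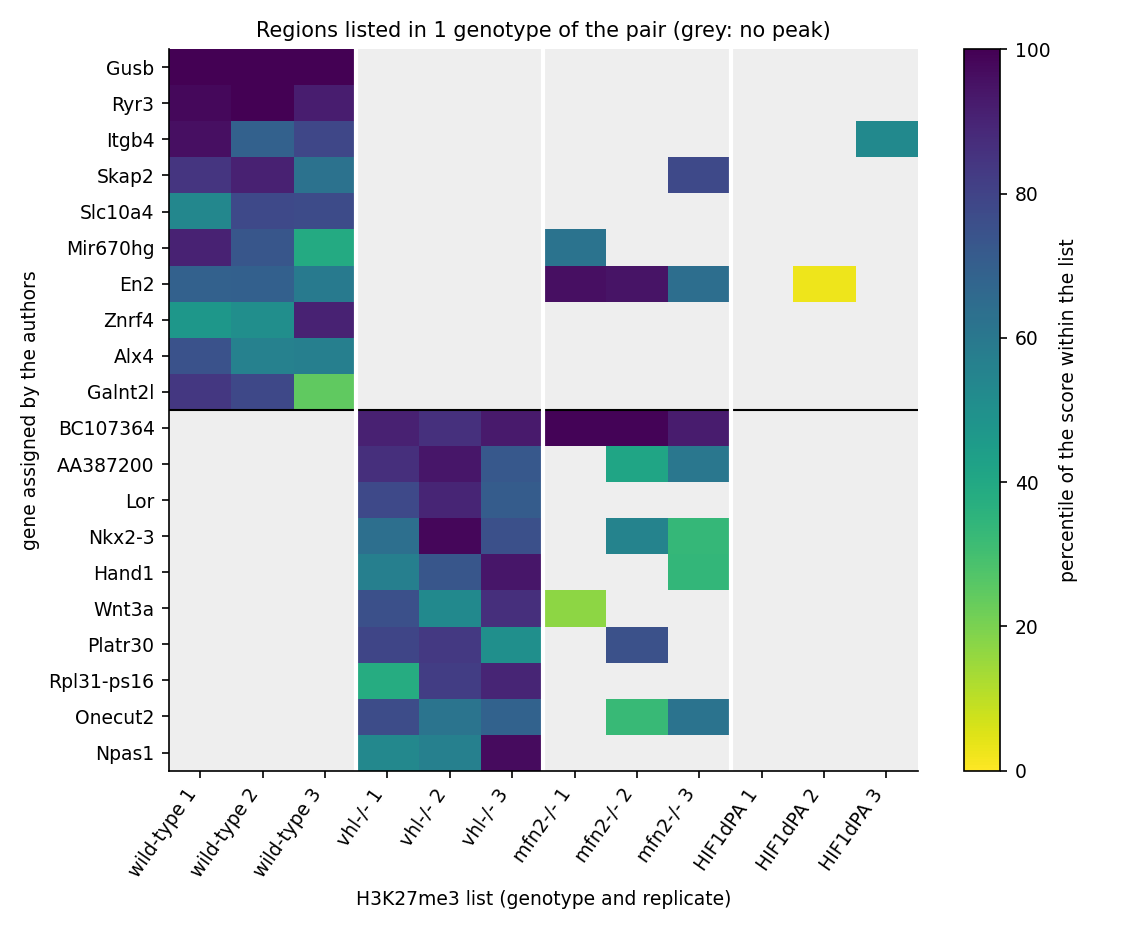
Percentile of the score within each of the 12 H3K27me3 lists (color, 0 to 100; grey, no peak) for the 10 wild-type only regions (above the line) and the 10 vhl-/- only regions (below it) with the highest mean percentile, by assigned gene (rows) and list (columns). Gusb and Ryr3 are dark in the 3 wild-type lists and grey elsewhere, and BC107364 is also listed in the 3 mfn2-/- lists.

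Many separating regions lay beside peaks of the other genotype. A wild-type peak lay within 5 kb of 51 of the 66 vhl-/- only regions (77.3%), and a vhl-/- peak lay within 5 kb of 21 of the 33 wild-type only regions (63.6%). Among all regions listed in vhl-/- lists alone, in any number of them, the share was 43.7%, and among those of wild-type lists alone it was 40.7%. The assigned gene of 54 vhl-/- only regions had a wild-type peak elsewhere, and that of 23 wild-type only regions had a vhl-/- peak. En2 and Nr2e1, homeobox and nuclear receptor genes of the brain, had a region of each kind. By the authors' classes, 31 of the vhl-/- only regions were at promoters, 24 intergenic, 6 in introns and 3 in exons. Of the wild-type only regions 21 were at promoters, 4 intergenic, 5 in introns and 2 in exons. In mfn2-/- at least 1 list had a peak at 40 of the 66 and at 11 of the 33, and in HIF1dPA at 7 and at 4, where lists are shorter. Of all 11050 regions, 2643 had a peak in at least 1 mfn2-/- list and 652 in at least 1 HIF1dPA list. An H3K9me3 peak of wild-type or vhl-/- overlapped 0 of the 66 and 1 of the 33.

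Promoter sequence was read for separating regions in which at least 2 lists covered the whole window from 250 bases before to 50 after a RefSeq start (GRCm38.p6, the same assembly as mm10). These are the windows that lie inside the mark of a single genotype. They are printed 5′ to 3′ on the strand of the gene, with each CpG in capitals, since CpG-rich promoters are where Polycomb is usually found. The first 2 were listed in wild-type only, Slc10a4 at chr5:73006654-73006953 (forward strand) and a start of the nicotinic acetylcholine receptor gene Chrna5 at chr9:54980630-54980929 (forward strand). The last 2 were listed in vhl-/- only, BC107364 at chr3:96452257-96452556 (reverse strand) and a start of Crybg1 at chr10:44004797-44005096 (reverse strand).
Slc10a4: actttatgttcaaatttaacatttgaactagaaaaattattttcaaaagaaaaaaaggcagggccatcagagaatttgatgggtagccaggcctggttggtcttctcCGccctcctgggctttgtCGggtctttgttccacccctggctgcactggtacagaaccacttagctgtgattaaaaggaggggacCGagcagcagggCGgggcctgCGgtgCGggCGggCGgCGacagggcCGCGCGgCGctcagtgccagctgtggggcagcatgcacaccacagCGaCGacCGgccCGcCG
Chrna5: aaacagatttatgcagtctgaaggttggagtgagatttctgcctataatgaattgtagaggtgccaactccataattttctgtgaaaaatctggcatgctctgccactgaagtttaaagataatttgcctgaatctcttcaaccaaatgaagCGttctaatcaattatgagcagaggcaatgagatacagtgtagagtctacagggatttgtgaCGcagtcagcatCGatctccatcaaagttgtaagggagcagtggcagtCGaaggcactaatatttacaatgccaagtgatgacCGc
BC107364: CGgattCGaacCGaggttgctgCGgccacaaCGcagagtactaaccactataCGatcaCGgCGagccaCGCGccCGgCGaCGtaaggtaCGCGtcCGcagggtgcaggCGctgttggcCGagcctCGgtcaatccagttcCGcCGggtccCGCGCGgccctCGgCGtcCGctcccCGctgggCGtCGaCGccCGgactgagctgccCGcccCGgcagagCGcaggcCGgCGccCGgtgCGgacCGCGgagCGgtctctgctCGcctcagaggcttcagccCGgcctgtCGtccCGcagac
Crybg1: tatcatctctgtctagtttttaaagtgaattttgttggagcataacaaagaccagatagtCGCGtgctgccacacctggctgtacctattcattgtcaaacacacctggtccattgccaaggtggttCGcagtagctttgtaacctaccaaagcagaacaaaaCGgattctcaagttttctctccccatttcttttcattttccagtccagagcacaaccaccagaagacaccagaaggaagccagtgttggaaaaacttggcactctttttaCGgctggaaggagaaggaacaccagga

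The windows held 18, 5, 46 and 5 CpGs in the order printed, so that CpG-rich and CpG-poor starts occurred in each genotype. Over all 31396 autosomal windows of this kind the median was 7 CpGs. The 204 windows that touched regions of all 6 lists had a median of 16, the 8 in wild-type only regions 17, the 11 in vhl-/- only regions 17 and the 417 in regions of 1 list 13. The letters ACGTG or GCGTG on either strand, the core bound by HIF1α, stood in 44.1% of all windows, in 52.0% of those in regions of all 6 lists, in 2 of the 8 wild-type only and in 5 of the 11 vhl-/- only windows. Of the 4 printed, BC107364 and Crybg1 hold them.

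The same comparison was made over gene symbols as the authors assigned them. Of 4698 autosomal symbols with a peak in any list, 527 had one in all 6 and 2095 in 1 list. In wild-type only there were 25 (0.532%), led by Gusb and Itgb4, and in vhl-/- only 37 (0.788%). A set of 640 genes in 21 lists by family and pathway, described below, had 358 members with a peak in at least 1 list. The number with a peak was 254, 229 and 230 in wild-type and 264, 257 and 247 in vhl-/- lists (difference of the means 18.3, exact permutation p = 0.2). Of these genes 6 separated the genotypes, 1 toward wild-type and 5 toward vhl-/-. Sox5, a transcription factor of cartilage and neurons, scored 74.16, 63.91 and 56.05 in wild-type only. Six2, a homeobox gene of kidney and tendon progenitors, scored 87.42, 95.04 and 66.02 in vhl-/- only, and its peaks covered 2319, 4634 and 3198 bp. Pax4, of the pancreas, scored 66.04, 83.01 and 52.09. The ligand Wnt7b scored 51.98, 86.23 and 68.11, and the Wnt receptor Fzd3 scored 87.99, 58.44 and 63.89. The adrenergic receptor Adra1a scored 143.67, 59.77 and 52.86, so that a single list carried most of its score.

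The genotypes were then compared by the length that peaks covered at each gene. Of the 527 genes with a peak in all 6 lists, 66 (12.5%) had more bases covered in every vhl-/- list than in any wild-type list, and 9 (1.71%) had fewer. The median ratio over these genes was 1.18. Summed over the members of each of the 21 gene lists, the covered length was above every wild-type value in all 3 vhl-/- lists for 9 gene lists and below for 1, and the median ratio was 1.23. The ratio of the total covered length, 1.17, is the level to read these against. Without wild-type replicate 1, the wild-type library with the most peaks, the 9 became 14.

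The Hox cluster genes, which set position along the body axis, showed one of the widest differences. Their peaks covered 42.5, 42.1 and 41.2 kb in wild-type and 64.0, 72.0 and 60.0 kb in vhl-/- (41.9 ± 0.643 and 65.3 ± 6.14 kb, SD, n = 3; ratio 1.56). The number of Hox genes with a peak overlapped, at 15, 15 and 14 against 15, 15 and 16 of 39. The clusters differed in the size of their ratios. At Hoxd genes 11.5, 14.6 and 12.6 kb were covered in wild-type and 22.3, 31.3 and 23.6 kb in vhl-/-, a ratio of 1.99, by 12, 12 and 11 against 18, 25 and 19 peaks. Their mean score was 83.8, 114 and 107 against 116, 124 and 108. The ratio was 1.59 at Hoxb genes and 1.50 at Hoxa genes, again without overlap. At Hoxc genes it was 1.19, with 17.8, 12.6 and 16.3 kb against 20.2, 17.9 and 17.4 kb, and the groups overlapped.

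**Figure D4:**
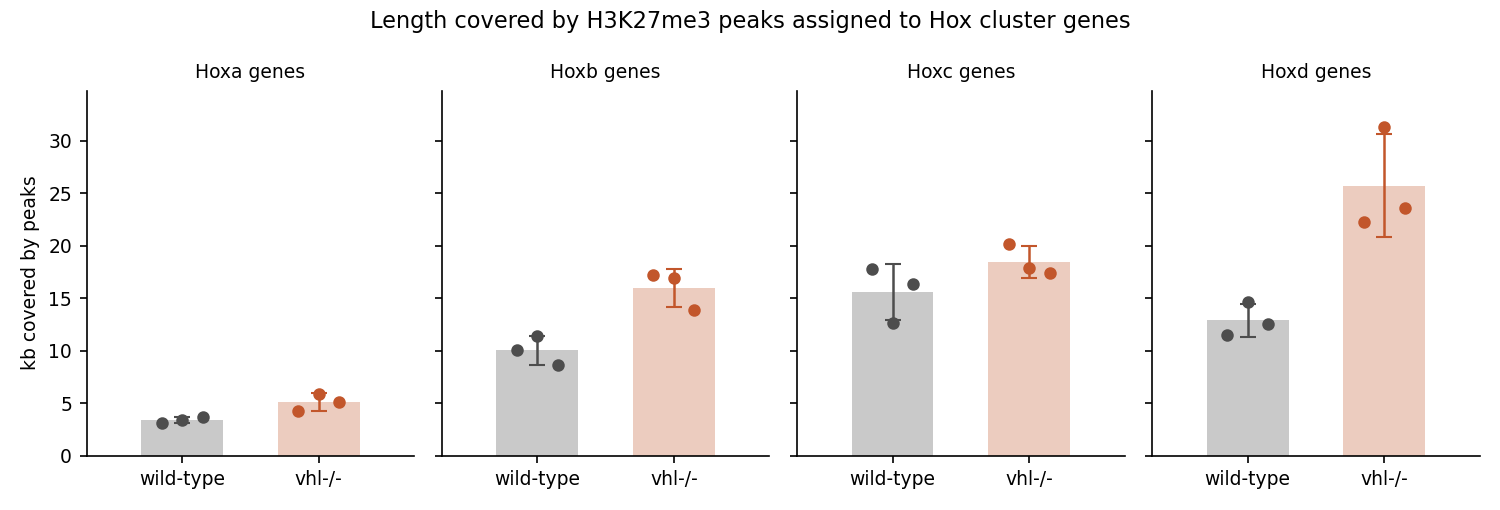
Length in kb covered by H3K27me3 peaks assigned to genes of each Hox cluster (panels) in wild-type and vhl-/- lists, with a point per library, the mean as a bar and the SD as an error bar. The vhl-/- points lie above the wild-type points for Hoxa, Hoxb and Hoxd and overlap them for Hoxc.

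Within the Hoxd cluster the gain in length was largest in ratio at Hoxd10, with 1469, 1095 and 1313 bp against 4163, 3492 and 3907 bp (ratio 2.98). Hoxd3 had 3218, 3464 and 848 bp against 3811, 7049 and 8100 bp, and Hoxd13, the most terminal gene of the cluster, 3108, 5790 and 3663 bp against 5978, 6565 and 6662 bp. These 3 genes did not overlap between genotypes, and 66 of the 527 genes (12.5%) likewise had more bases covered in every vhl-/- list. Hoxd11 and Hoxd12 did overlap, with ratios of 2.12 and 1.22. At Hoxd12 the score went the other way from the length. Its highest peak scored 155.05, 160.61 and 154.84 in wild-type and 56.17, 123.46 and 129.99 in vhl-/-. All 9 Hox genes with a peak in every list had a ratio above 1, as had 71.0% of the 527 genes. With an equal number of top peaks the Hox cluster ratios were 1.50, 1.64, 1.20 and 1.96 for Hoxa to Hoxd, and the groups no longer overlapped at Hoxc. Leaving out each library in turn gave ratios of 1.78 to 2.14 for Hoxd. The choice to split the Hox genes by cluster was made after their values were seen.

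Among other developmental regulators, the families without overlap between the genotypes had ratios from 1.60 down to that of all peaks. The T-box genes were covered over 39.1, 30.0 and 25.0 kb in wild-type and 53.9, 50.6 and 46.3 kb in vhl-/- (ratio 1.60), with 7 to 8 and 8 to 9 of 15 genes listed. Genes of the Wnt pathway had 31.8, 21.6 and 17.8 kb against 33.8, 41.6 and 34.3 kb (ratio 1.54), and 21, 14 and 12 against 22, 23 and 21 of 45 genes with a peak. Wild-type replicate 1 stood close to the vhl-/- lists in both of these Wnt measures. The Nkx homeobox genes had a ratio of 1.44, the LIM homeobox genes, all 12 of which had a peak in every list, 1.33, and the mesodermal and myogenic bHLH genes 1.31. The Gata, Zic and Sall genes had 1.26, the Dlx, Msx, Gsx, Irx and Bar genes 1.19 and the other head and limb homeobox genes 1.17, the last of these at the 1.17 of all peaks. In none of these 9 gene lists did the genotypes overlap on full lists. With an equal number of top peaks 7 did not, and the Dlx and Gata groups overlapped.

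In the remaining lists of regulators the genotypes overlapped. The neural bHLH genes had a ratio of 1.26, the forkhead genes 1.22 and the Sox genes 1.12. The Pax, Eya and Six2-related genes had a ratio of 1.19, and those of them with a peak numbered 11, 11 and 10 against 12, 14 and 13 of 19, without overlap in number. For genes of growth factors and receptors the ratios were 1.28 (FGF, BMP, GDF and hedgehog), 1.23 (neurotransmitter receptors) and 1.10 (potassium channels). Genes of Polycomb complexes and H3K27 demethylases had 1.36, with overlap. Of these, Bmi1 and Cbx8, subunits of Polycomb repressive complex 1, had a peak in all 6 lists, and Ezh2, the methyltransferase, in 1 vhl-/- list.

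Lists tied to HIF1α and to muscle held few peaks. Of 48 HIF1 target genes 7 had a peak in any list, with 1 to 4 listed per wild-type library and 2 in each vhl-/- library, and none was listed in all 6. Kdm3a, an H3K9 demethylase, and Nos2, a nitric oxide synthase, had a peak in 1 wild-type and 2 vhl-/- lists. Of 16 genes of the HIF and VHL pathway Nfatc2 and Hif1an had 1 peak each, in wild-type. Of 37 myosin heavy chain and sarcomere genes Myh8 and Nebl were listed. That list had the only covered length below every wild-type value in all 3 vhl-/- lists, at 4.69, 3.98 and 5.44 kb against 2.45, 1.53 and 2.23 kb (ratio 0.441), most of it Myh8. Imprinted genes had a ratio of 0.683 with overlap.

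Few markers of the cell types that dissected muscle could hold were listed. Muscle stem cell markers with a peak numbered 3, 3 and 1 of 9 in wild-type and 1, 2 and 2 in vhl-/-, namely Pax7, Chodl and Calcr. Of the fibro-adipogenic and tendon markers Pdgfra alone was listed, in all 6 lists. Endothelial and mural markers were listed in 2 wild-type and no vhl-/- lists, immune markers in 1 list of each genotype, and of the Schwann and neural markers Rbfox3 was listed in all 6. In a repressive mark a peak at a marker gene does not measure how many cells of that type were present.

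Whole lists were compared by peak number, width and strength. Wild-type lists held 3763, 3433 and 3427 autosomal peaks and vhl-/- lists 3873, 4023 and 3626 (3541 ± 192 and 3841 ± 200, SD, n = 3; ratio 1.08, exact permutation p = 0.2). They covered 3.51, 3.06 and 3.01 Mb against 3.75, 4.06 and 3.45 Mb (ratio 1.18 of geometric means, exact permutation p = 0.2), and both measures overlapped. Strong and wide peaks did not. Peaks with a score of at least 100 numbered 676, 548 and 562 in wild-type and 820, 875 and 717 in vhl-/- (ratio 1.35, exact permutation p = 0.1). Peaks of at least 3 kb numbered 31, 16 and 18 against 47, 55 and 35 (ratio 2.16, exact permutation p = 0.1). The median width was 779, 755 and 739 bp against 784, 826 and 785 bp (difference of the means 40.7 bp, exact permutation p = 0.1). A comparison of 3 with 3 lists cannot go below 0.1, and over the 19 measures compared the smallest p after Benjamini-Hochberg adjustment of the exact tests was 0.317.

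Promoters, by the authors' classes within 3 kb of a start, made up 49.7%, 48.5% and 49.8% of wild-type peaks and 52.9%, 50.7% and 51.0% of vhl-/- peaks (49.3 ± 0.732 and 51.5 ± 1.21, SD, n = 3; exact permutation p = 0.1), without overlap. Within 1 kb the shares were 28.1 ± 1.46% and 29.9 ± 0.783% (SD, n = 3; exact permutation p = 0.2). Introns held 14.2% and 13.3% and intergenic sequence 31.9% and 30.4%, each with overlap (exact permutation p = 0.3). Exons, 3′ UTRs, 5′ UTRs and downstream sequence together held few peaks, and none of their shares separated the genotypes. With the 3427 strongest peaks of each list the promoter share was 50.7%, 48.5% and 49.8% in wild-type and 54.6%, 53.0% and 51.7% in vhl-/- (difference 3.42 points, exact permutation p = 0.1), and the intron share was 14.0%, 14.7% and 13.4% against 12.7%, 12.9% and 12.6% (exact permutation p = 0.1).

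The number of genes with a peak depended on the number of peaks taken. On full lists it was 2028, 1898 and 1870 in wild-type and 1978, 2058 and 1877 in vhl-/- (ratio 1.02, exact permutation p = 0.6). With equal numbers of top peaks it was 1855, 1896 and 1870 against 1772, 1759 and 1791, so that every vhl-/- list named fewer genes than any wild-type list while covering more sequence, 3.47, 3.67 and 3.33 Mb against 3.30, 3.06 and 3.01 Mb (exact permutation p = 0.1 for each). Covered length was also higher in vhl-/- among the 1000 strongest peaks (ratio 1.16, exact permutation p = 0.1), where the median width was 1302, 1168 and 1171 bp in wild-type and 1371, 1488 and 1331 bp in vhl-/-.

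**Figure D5:**
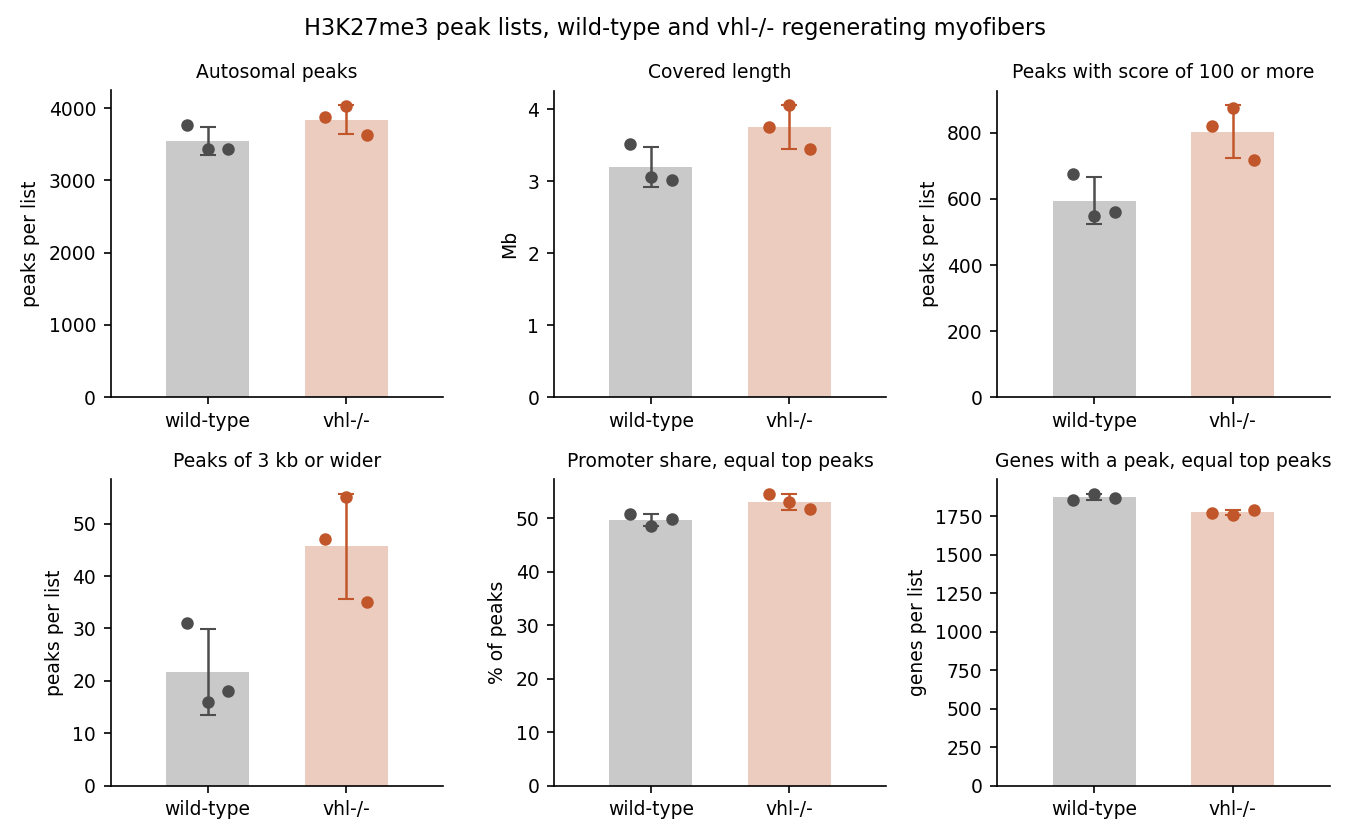
Measures of the 6 H3K27me3 lists by genotype, with a point per library, the mean as a bar and the SD as an error bar, for full lists (peak number, covered length in Mb, peaks scoring at least 100, peaks of at least 3 kb) and for the 3427 strongest peaks of each list (promoter share in %, genes with a peak). Peak number and covered length overlap between genotypes, and the other 4 panels do not.

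The overlap of whole lists was measured last. The Jaccard index (for 2 lists, bases in both divided by bases in at least 1 of them) averaged 0.152 within wild-type, 0.190 within vhl-/- and 0.165 between them. The mean within genotypes exceeded that between them by 0.00567 (exact permutation over 10 splits, p = 0.1, the smallest possible). This excess came from the vhl-/- pairs alone. Pairs of wild-type lists, at 0.149 to 0.156, were less alike than any pair between genotypes, at 0.157 to 0.175. Each vhl-/- pair was more alike than any pair that held a wild-type list, with the lowest vhl-/- index at 0.187 and the highest of the others at 0.175.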

How the data were processed

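The authors deposited 1 peak list per ChIP library, made separately for every library. A row gives an interval, a score (10 times the negative log10 of the p-value, listed from 50), a gene symbol and a feature class. Their processing notes name BWA 0.7.5, MACS, deepTools 3.5.0 and mm10, without roles. The lists hold no read totals, so depth is unknown, and the reads behind the study's own differential analysis were not analysed here. The unit of every deposited value used is this score; widths, ranks and percentiles were computed from it and the intervals.

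Peaks were merged into regions at an overlap of 1 bp. Log2 scores and widths at regions in all 6 lists were centered on each library's median and fitted with limma 3.58.1 (R 4.3.3), with Benjamini-Hochberg adjustment over all these regions. Library values were compared with exact two-sided permutation tests (20 arrangements, smallest p 0.1). Other steps ran in Python 3.11.15 (pandas 2.3.3, numpy 2.4.6; plots, matplotlib 3.10.9) and were tested on simulated data. Members and gene lists were chosen with earlier results of these data known. Named were Myh8, the study's own genes, listed genes that separated the genotypes, the 10 separating regions of highest percentile in each direction, the regions that passed limma or else the 5 of smallest p, and the 5 strongest shared regions. A region that this rule names is not reported here. Positions were unique within each list, and all lists differed. Of promoter peaks within 1 kb, 6444 in all, 4370 had their symbol in the RefSeq promoter table, and 73.6% of these lay within 1 kb of a RefSeq start of that gene. Between 5 and 13 X peaks and up to 1 Y peak per list were left out.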

Additional observations from a re-analysis of the deposited data

How the results depend on the processing

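The call at Myh8 held in every alternative that was run, with log2 differences of -4.68 to -4.31 when each library was left out, -3.39 with quantile normalization and -4.15 without centering. No region was called higher in score, and none in width, under any of them. With regions of at least 3 lists the number called lower was 2, of which the second, Gusb, entered through its wild-type peaks alone with every vhl-/- value set to the lowest listed score, so that its call is no test. The labels do not say whether same-numbered libraries share an animal, day or batch, and the libraries were treated as unpaired. Deviations of same-numbered libraries correlated at -0.00539, -0.0193 and 0.0390 over the 427 regions. These values cannot decide the question, since a shared batch need not leave such a correlation. With the replicate number as a block the log2 difference at Myh8 was again -4.44 (limma adjusted p = 1.37e-17), the permutation p rose to 0.25, the smallest possible, for peak number (log2 ratio 0.117), covered length (0.233), median width (40.7 bp) and promoter share (2.20 points), and no call changed. The direction of the number of genes with a peak turned, from a log2 ratio of 0.0287 to -0.0788 with equal numbers of top peaks and -0.0318 with 1000, and ranged from -0.00296 to 0.0641 with each library left out. The similarity within minus between genotypes turned to -0.0036, -0.00434 and -0.00365 without vhl-/- replicates 1, 2 and 3 in turn, within a range of -0.00434 to 0.0178, so its direction rests on each of these libraries. Counts of separating regions moved with the definition. Toward wild-type there were 5 at a score of at least 100, 19 among 1000 top peaks, 12 with no vhl-/- peak within 5 kb, 298 when 2 of 3 lists sufficed and 42 to 129 with a library left out. Toward vhl-/- the same settings gave 14, 16, 15, 467 and 100 to 228. Genes in wild-type only numbered 3 at a score of at least 100, 9 among 1000 top peaks, 16 from promoter peaks and 38 to 87 with a library left out. Genes in vhl-/- only numbered 13, 8 and 60 to 108 at the first, second and last of these settings. In these leave-one-out counts a list fewer is asked for or excluded, which by itself admits more regions and genes. Gene lists covered over more length in every vhl-/- list numbered 9 to 14, the highest without wild-type replicate 1, and those covered over less 1 to 2. The peak number, covered length, median width, promoter share and number of listed genes kept their direction in all alternatives run, with leave-one-out ranges of 0.0831 to 0.162 and 0.175 to 0.303 (log2 ratios), 26.8 to 51.3 bp, 1.51 to 2.60 points and 14.0 to 26.5 genes. The alternatives for Hox clusters and for covered length by gene list were chosen after seeing the data. Depth is unknown, so weak peaks absent from a list may lie just under its threshold.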
